A study of Mus musculus with 2 samples.

Results

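The genes described here encode the Fos and Jun families of AP-1, the related factor Atf3, and the immediate early transcription factors Egr1 and Myc, in whole kidney of mice. The members were taken by gene symbol: 10 were listed, of the 20002 genes in the expression table, and 9 of them had a row. Fosl1 was not analysed here. AP-1 is a dimer of leucine zipper proteins in which a Jun protein pairs with another Jun protein, with a Fos protein or with an ATF protein, and which binds DNA upstream of genes for proteases, cytokines and cell cycle regulators. Most of these genes are immediate early genes: kinases of the MAP kinase cascades act on factors already bound at their promoters, transcription starts within minutes without new protein synthesis, and the mRNAs decay quickly, in part through AU-rich elements in the 3′ end that recruit decay factors such as tristetraprolin. In kidney, AP-1 and Egr1 mRNAs are known to appear early after ischemic or toxic injury of the tubules.

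The comparison asked how kidney RNA differed when the RNase Regnase-2, encoded by Zc3h12b, was targeted. The labels name a control group and a proximal tubule-specific conditional knockout (CKO) group of Reg-2, each represented by 1 library of whole kidney, here called the control and the CKO library, so the differences below have no replicate check. By the study's methods, its mice were bought as C57BL/6J, and the CKO mice were given AAV9 with an shRNA against Regnase-2 by tail vein at 11 weeks of age. AAV9 is described there as entering mainly the proximal tubule, and the promoter that drives the shRNA is not given in the sources used here. The controls received AAV9 without a Regnase-2 shRNA, called an empty vector in the passage on AAV9 and a control shRNA in the passage on RNA sequencing. The ages also differ between these passages, with sequenced kidneys taken at 14 weeks in the latter and AAV9 kidneys harvested at 16 weeks in the former. The methods name a left kidney as the source of the RNA. The labels record no treatment for either group, and the number of mice behind each library is not given in the sources used here.

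The values are whole numbers, of which the smallest is 35 for control and 51 for CKO. They were read as reads plus a constant, which is an inference, and the column minimum minus 1 was subtracted. The control library then held 38851231 reads and the CKO library 43588721. To scale the libraries, the ratio of control to CKO reads was taken for each gene and CKO reads were multiplied by its median, 0.667. Log2 ratios were taken as CKO over control after adding 1 to each. Their 95% Clopper-Pearson intervals, and the differences in log2 ratio between members, were computed without the added 1. The intervals cover the counting error of these 2 libraries and no other source of spread. A gene counted as tested with at least 10 scaled reads in 1 library, which 17469 genes reached. Among them, 2334 genes (13.4%) were higher in the CKO library by 2-fold or more and 934 (5.35%) were lower by as much.

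Zc3h12b, the targeted gene, had 47 reads in control kidney and 59 in CKO kidney, or 39.3 after scaling. Its ratio of 0.837 had an interval of 0.561 to 1.25, so a difference was not detectable at this depth, and Zc3h12b does not check the labels. Defining markers of kidney tubule segments were present in both libraries. Lrp2, the megalin receptor of the proximal tubule, had 103389 and 82681 reads, and Umod, the secreted protein of the thick ascending limb, had 90047 and 187056.

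Of the 9 members with a row, 8 were at least 2-fold higher in the CKO library, beside 13.4% of all genes tested, and 0 were at least 2-fold lower, beside 5.35%. The median log2 ratio of the 9 members was 2.18, and that of all genes tested was 0.02. Jund was the member under 2-fold. All 9 members had at least 10 reads in the control library, so none entered the comparison only through the group in which it was higher. Together they took 6052 reads in control kidney and 22269 in CKO kidney, of which Jund made up 53.3% (95% Clopper-Pearson interval 52.0 to 54.5) and 24.9% (24.4 to 25.5). In the plot of reads by gene, the points of the 2 libraries lie close together for Jund and apart for each other member.

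**Figure D1:**
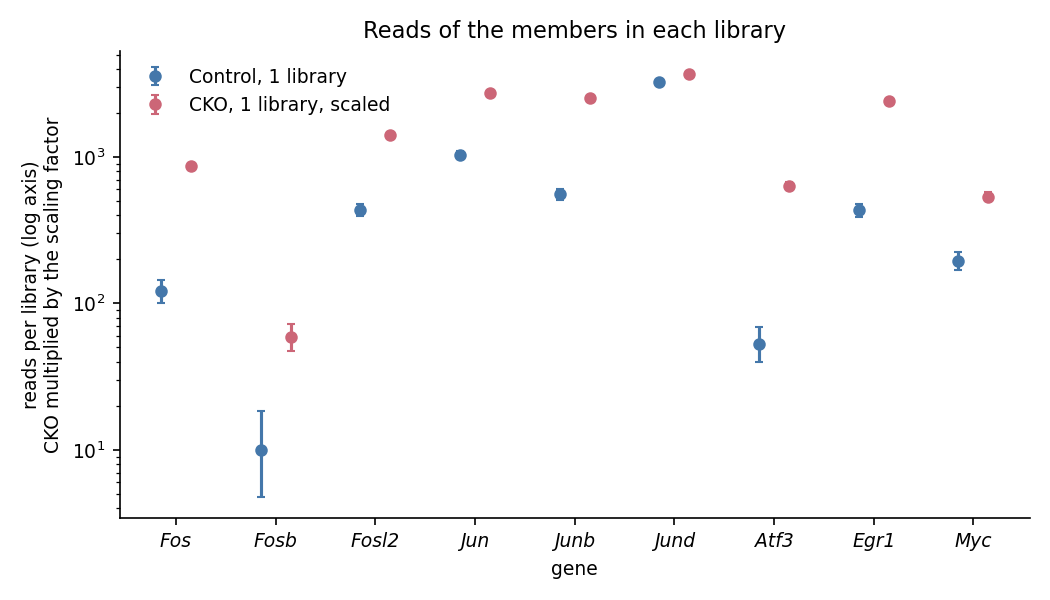
Reads of each member in the control library and, multiplied by the scaling factor of 0.667, in the CKO library, on a log axis. Points are the values of 1 library per group and bars are 95% Poisson intervals of the counts. Atf3 had 53 control reads and 631 scaled CKO reads, while Jund had 3223 and 3701.

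The Fos proteins pair only with other zipper proteins and bring transactivation domains of different strength to the dimer. Fos, gene 14281 in the table, lies on chromosome 12 from 85473890 to 85477273 on the plus strand of GRCm38 in the GENCODE M21 annotation. Its reads numbered 121 in control kidney and 1299 in CKO kidney. Its log2 ratio was 2.83, with an interval of 2.57 to 3.12, and it ranked 238 from the top among all genes tested. Fos is the classic immediate early gene, nearly silent in resting cells.

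Fosb, gene 14282, lies on chromosome 7 from 19302696 to 19310051 on the minus strand. It had 10 reads in the control library, the fewest of any member, and 88 in the CKO library. The small control count left a wide interval of 1.61 to 3.66 around its log2 ratio of 2.44. The value also depended on the constant subtracted: the deposited values scaled by the median gene ratio gave 1.06, outside that interval. Fosb also gives rise to the long-lived splice form ΔFosB, which gene-level reads do not separate from the full-length form.

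Fosl2, gene 14284, encodes Fra-2, a Fos protein without a strong transactivation domain. It lies on chromosome 5 from 32135801 to 32157842 on the plus strand. Its reads numbered 436 in control kidney and 2112 in CKO kidney. Its log2 ratio was 1.69, with an interval of 1.54 to 1.84, below that of Fos by 1.15 on the log2 scale (95% interval of the difference 0.84 to 1.46, counting error only). The 3 Fos family members with a row were therefore higher to unequal degrees, and Fosb overlapped both of the others within its counting error.

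The Jun proteins can form dimers with themselves as well as with Fos proteins. Jun, gene 16476 on chromosome 4 from 95049034 to 95052222 on the minus strand, encodes the strongest activator of the family and is itself turned on by AP-1 and by the kinase JNK. Its reads numbered 1026 in control kidney and 4077 in CKO kidney. The log2 ratio of Jun was 1.40, with an interval of 1.31 to 1.51 and a rank of 1466. Jun did not differ from Myc in its ratio beyond counting error, the difference of -0.05 having an interval of -0.29 to 0.20.

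Junb, gene 16477, lies on chromosome 8 from 84974484 to 84978718 on the minus strand and encodes a Jun protein that dampens Jun at some promoters and is needed for others. Its reads numbered 557 in control kidney and 3784 in CKO kidney. Its log2 ratio was 2.18, with an interval of 2.05 to 2.31 and a rank of 598. The ratio of Jun was below that of Junb by more than counting error, with a difference of -0.77 (interval -0.94 to -0.61).

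Jund, gene 16478, lies on chromosome 8 from 70698949 to 70700616 on the plus strand. JunD is the Jun protein that many resting tissues hold at a steady level. Jund had 3223 reads in control kidney and 5551 in CKO kidney. Its log2 ratio was 0.20, with an interval of 0.14 to 0.26, a scaled ratio of 1.15, and it ranked 6546 among the 17469 genes tested. This small ratio moved with the scaling more than it stood from 0: it was 0.17 with the column minimum subtracted and 0.62 with the libraries scaled to equal totals, so its size depended on the scaling.

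Some reads of the Jun genes could belong to neighbours, because whether the counting used strand is not given in the sources used here. Of the exon bases of Jund, 52.6% are shared with the antisense gene Gm11175, which was not analysed here. Jun shares 7.28% of its exon bases with the antisense transcript Junos, which had 22 and 99 reads, while Junb shares 7.52% with Prdx2 on the other strand. Prdx2, a peroxiredoxin, had 6297 and 8721 reads with a log2 ratio of -0.12.

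Atf3, Egr1 and Myc stand outside the Fos and Jun families. Atf3, a stress-induced factor that pairs with Jun proteins and often represses, is gene 11910 on chromosome 1 from 191170296 to 191218039 on the minus strand. Its reads numbered 53 in control kidney and 946 in CKO kidney. Its log2 ratio was 3.55 and its scaled ratio 11.9, the latter with a lower bound of 9.02, and its rank was 75, which was the highest ratio of the 9 members. The deposited values scaled by the median gene ratio gave a log2 ratio of 2.93 for Atf3, below its interval, and 2.54 for Fos. The ratio of Atf3 exceeded that of Fos, the next in order, by more than counting error, the difference of Fos from Atf3 being -0.73 (interval -1.21 to -0.25).

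Egr1, gene 13653, encodes a zinc finger factor that binds GC-rich sites. Its reads numbered 431 in control kidney and 3612 in CKO kidney, a log2 ratio of 2.48 with an interval of 2.34 to 2.63. Myc, gene 17869 on chromosome 15 from 61985391 to 61990374 on the plus strand, encodes a basic helix-loop-helix zipper factor that promotes growth. Its reads numbered 195 in control kidney and 800 in CKO kidney, a log2 ratio of 1.45 with an interval of 1.22 to 1.68. Egr1 ranked 400 and Myc 1396 among all genes tested. In the plot of ratios by member, Atf3 stands highest, Jund lowest, and the wide interval of Fosb overlaps those of all members except Jun and Jund.

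**Figure D2:**
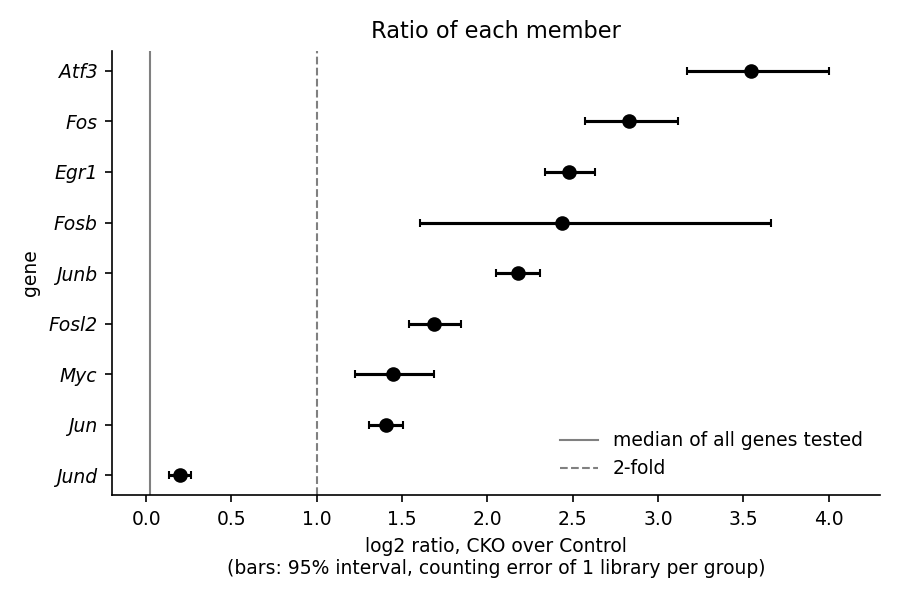
Log2 ratio of CKO over control for each member, with 95% intervals that cover the counting error of 1 library per group. The solid line is the median of all genes tested at 0.02 and the dashed line is 2-fold; every member but Jund lies to the right of the dashed line.

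Among all genes tested, the members spanned a wide range of read depth. Fosb lay among genes of few reads, where ratios scatter most, and Jund among well covered genes. The other members had between 53 reads for Atf3 and 1026 reads for Jun in the control library. The plot of all genes shows the members against the ratios of other genes with like depth.

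**Figure D3:**
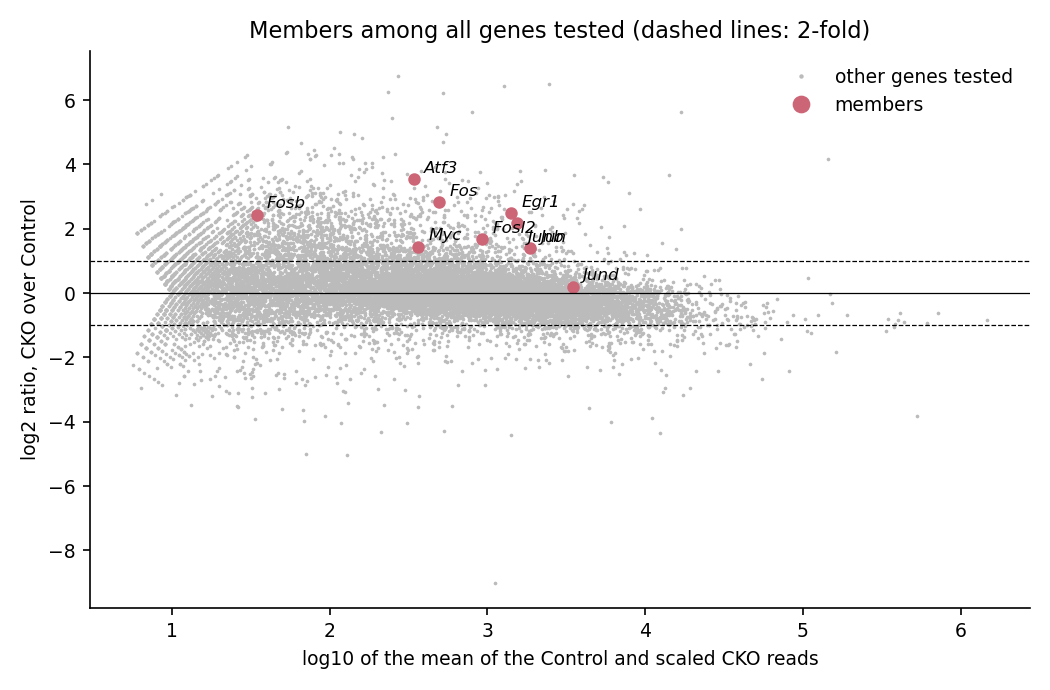
Log2 ratio against the log10 of the mean of the control and scaled CKO reads for each of the 17469 genes tested, 1 library per group. Members are the coloured points and dashed lines mark 2-fold; 8 of the 9 members lie above the upper line.

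To compare levels between members, reads were divided by exon length in GENCODE M21. In the control library Jund was highest, at 1932 reads per kb, followed by Jun at 322, Junb at 242, Egr1 at 96.1 and Myc at 71.8. Fos at 51.4 and Fosl2 at 45.0 reads per kb did not differ beyond their counting intervals, which ran from 42.7 to 61.5 and from 40.9 to 49.5. Atf3 stood at 24.6 and Fosb at 1.60 reads per kb. In the CKO library the order changed: after scaling, Junb at 1096 reads per kb passed Jun at 852, and both Fos at 368 and Atf3 at 293 passed Myc at 196.

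The level of Jund depends on its gene model. GENCODE M21 gives Jund 1668 exon bases, while the RefSeq gene starts upstream and spans 2878 bases. Over that span Jund had 1120 reads per kb in the control library, still the highest of the members, with Jun next at 322 per kb of its own span. In the CKO library the values per kb of RefSeq span were 1286 for Jund and 1371 for Junb, so which of these genes was highest there depended on the annotation.

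Shares within a family need no scaling between libraries. Of the 4806 reads of Jun, Junb and Jund in the control library, Jund took 67.1% (95% Clopper-Pearson interval 65.7 to 68.4), Jun 21.3% and Junb 11.6%. In the CKO library, of 13412 reads, Jund took 41.4% (interval 40.6 to 42.2), Jun 30.4% and Junb 28.2%. The make-up of Jun family reads thus differed beyond counting error, with the steadily expressed member down in share and Junb up most. Per exon length, Jund made up 77.4% of the family in the control library and 53.2% in the CKO library.

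Of the 567 reads of Fos, Fosb and Fosl2 in the control library, Fosl2 took 76.9% (interval 73.2 to 80.3) and Fos 21.3%. In the CKO library, Fosl2 took 60.4% of 3499 reads (interval 58.7 to 62.0) and Fos 37.1%. Fosb stayed a minor component, at 1.76% and 2.52%, with overlapping intervals of 0.849 to 3.22 and 2.02 to 3.09. Because Fos is a shorter transcript than Fosl2, it made up 52.4% and 70.4% of the family per exon length. Fos family reads were 10.6% of the sum of both families in the control library (interval 9.74 to 11.4) and 20.7% in the CKO library (interval 20.1 to 21.3).

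**Figure D4:**
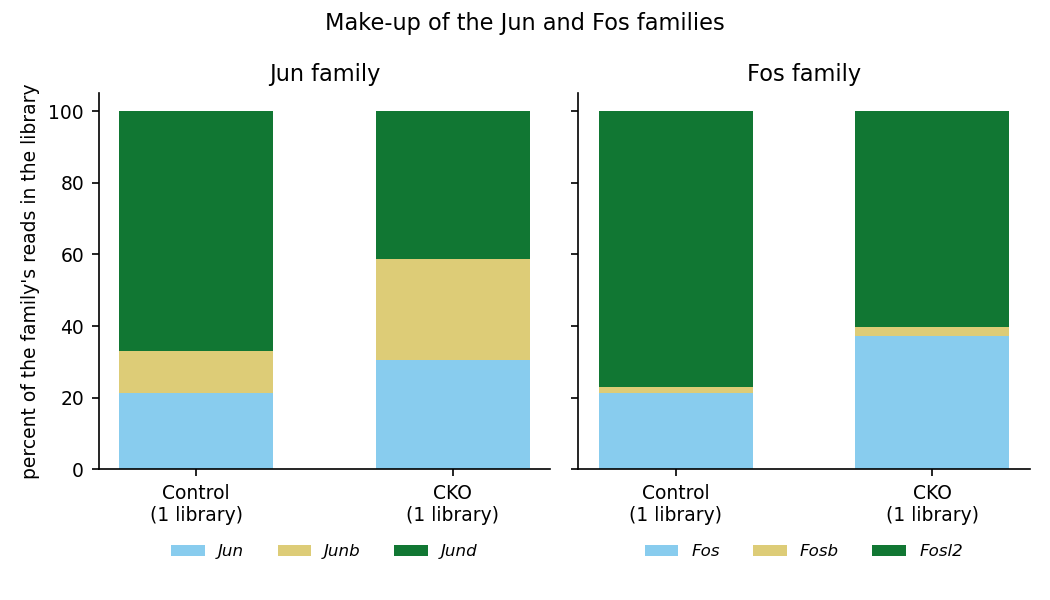
Percent of the reads of the Jun family and of the Fos family taken by each gene in the control library and in the CKO library, 1 library per group. Jund took 67.1% and 41.4% of Jun family reads, and Fos 21.3% and 37.1% of Fos family reads; Fosl1 is not part of the sum.

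Because 8 of the members were higher together, the sequences at their starts are shown. RefSeq gives a window of 300 bases, from 250 before to 50 after the start, for 7 of the 10 listed members in GRCm38.p6. The windows of Fos (chr12:85473640-85473939, plus strand), Junb (chr8:84978699-84978998, minus strand), Jun (chr4:95052173-95052472, minus strand), Atf3 (chr1:191183284-191183583, minus strand) and, as the member with the smallest ratio, Jund (chr8:70697489-70697788, plus strand) read as follows, 5′ to 3′ on the strand of the gene, with motif matches in capitals.
Fos: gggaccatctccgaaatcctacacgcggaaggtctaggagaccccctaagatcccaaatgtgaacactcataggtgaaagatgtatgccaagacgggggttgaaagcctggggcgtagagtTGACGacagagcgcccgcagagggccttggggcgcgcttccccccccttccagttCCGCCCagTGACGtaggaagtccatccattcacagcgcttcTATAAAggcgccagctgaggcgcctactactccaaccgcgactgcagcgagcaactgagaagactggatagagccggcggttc
Junb: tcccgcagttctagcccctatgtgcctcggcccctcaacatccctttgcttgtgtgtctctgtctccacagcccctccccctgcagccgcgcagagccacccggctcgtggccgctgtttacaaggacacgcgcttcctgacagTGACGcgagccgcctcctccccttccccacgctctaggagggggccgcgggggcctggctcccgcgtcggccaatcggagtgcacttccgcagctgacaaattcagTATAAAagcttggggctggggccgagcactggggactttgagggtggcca
Jun: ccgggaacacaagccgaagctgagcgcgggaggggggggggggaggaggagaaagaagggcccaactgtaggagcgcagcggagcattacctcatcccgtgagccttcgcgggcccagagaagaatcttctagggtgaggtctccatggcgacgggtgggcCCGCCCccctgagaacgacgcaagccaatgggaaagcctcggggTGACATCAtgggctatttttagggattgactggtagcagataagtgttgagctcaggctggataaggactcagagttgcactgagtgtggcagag
Atf3: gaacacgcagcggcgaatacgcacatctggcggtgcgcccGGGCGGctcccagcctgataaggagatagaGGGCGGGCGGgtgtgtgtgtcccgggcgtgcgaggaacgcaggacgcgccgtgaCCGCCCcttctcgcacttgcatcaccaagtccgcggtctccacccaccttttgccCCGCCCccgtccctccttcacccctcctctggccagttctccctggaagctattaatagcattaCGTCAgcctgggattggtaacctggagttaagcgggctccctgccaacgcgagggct
Jund: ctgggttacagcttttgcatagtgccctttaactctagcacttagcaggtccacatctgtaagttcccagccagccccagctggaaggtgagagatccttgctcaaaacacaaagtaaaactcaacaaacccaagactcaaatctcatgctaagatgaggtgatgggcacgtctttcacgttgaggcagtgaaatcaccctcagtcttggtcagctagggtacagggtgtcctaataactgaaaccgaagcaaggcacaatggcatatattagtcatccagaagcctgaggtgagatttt
These windows follow the RefSeq starts. For Jund that start lies upstream of the GENCODE M21 start, at 70697739 against 70698949, so the window does not reach the latter. For Junb it also lies upstream, at 84978748 against 84978718. For Atf3 it lies downstream, at 191183333 against 191218039.

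Motifs were searched on both strands of all 32851 windows. The core TGACG of the cyclic AMP response element, which CREB and ATF proteins bind, occurred in 4 of the 7 member windows, those of Fos, Fosb, Junb and Atf3, and in 20.8% of all windows. The whole element TGACGTCA, which contains that core, occurred in 0 of the 7 and in 1.79% of all windows. The AP-1 site TGACTCA also occurred in 0 of the 7, with 5.20% of all windows holding it. The variant TGACATCA, known as the AP-1 element of the Jun promoter, occurred in 1 member window, that of Jun, 45 to 38 bases before the start in the window's own count, and in 3.62% of all windows.

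The remaining motifs were the GC box, the TATA box and sites missing from the windows of the members. The GC box GGGCGG occurred in 5 of the 7 windows, those of Fos, Fosb, Fosl2, Jun and Atf3, and in 35.7% of all windows. The letters TATAAA of the TATA box occurred in 2, those of Fos and Junb, and in 13.6% of all windows. The E-box CACGTG bound by Myc and Max, the Egr site GCGTGGGCG and the CArG box bound by SRF occurred in 0 of the 7, and in 7.15%, 0.612% and 1.63% of all windows. The window of Jund held 0 of the motifs searched. That window ends at 70697788, before the GENCODE M21 start of Jund at 70698949, so the bases around the GENCODE start were not searched. Matches describe letters in these windows and say nothing on binding or on sites more than 250 bases before the start.

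The 3′ ends of these mRNAs carry AU-rich elements, the sites at which tristetraprolin and related proteins start decay. In the longest coding transcript of each gene in GENCODE M21, all 9 members with a row held the pentamer ATTTA after the stop codon, as did 64.8% of 20938 coding genes. The heptamer TATTTAT, which contains the pentamer, was found in 6 of the 9 and in 27.5% of coding genes, and the nonamer TTATTTATT, which contains both, in 2 of the 9 and in 7.59% of coding genes. These 27-base stretches show an element, in capitals, in the 3′ end of members with the nonamer (Fos at chr12:85477104-85477130 and Fosl2 at chr5:32156872-32156898, plus strand), in Atf3 with the highest ratio (chr1:191170339-191170365, minus strand) and in Jund with the lowest (chr8:70700360-70700386, plus strand).
Fos: gttttcaatTTATTTATTaagatggat
Fosl2: tttattttaTTATTTATTttaaatgtt
Atf3: aaatattactTATTTATcccagtattc
Jund: gattccgcccTATTTATgtttctactc

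The count of elements did not order the members by ratio. Fosl2 held 8 pentamers in a 3′ end of 4653 bases and had a log2 ratio of 1.69, while Egr1 held 2 in 1216 bases and had a log2 ratio of 2.48. Jund held 1 heptamer, as Jun and Atf3 did. Jund also had the 3′ end with the lowest A and T content of the members, 42.4%, and Myc the highest, 70.1%. Over all genes tested with a 3′ end, 13.7% of the 1105 with a nonamer and 14.3% of the 13166 without were at least 2-fold higher in the CKO library, and their median log2 ratios were 0.12 and 0.03. Among genes with 5 or more pentamers the share at least 2-fold higher was 11.9%, and among those with 0 it was 15.3%. Their 3′ ends had median lengths of 3024 and 390 bases, so element count and length cannot be told apart in these shares.

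Other zipper proteins that pair with the members were mostly within 2-fold. Of 12, 2 were at least 2-fold higher (16.7%, beside 13.4% of all genes tested) and 0 lower, with a median log2 ratio of 0.13. Equal totals put 4 of them past 2-fold, beside 21.9% of all genes tested at that scaling. Maff, a small Maf protein that lacks a transactivation domain, had 35 reads in control kidney and 612 in CKO kidney, a log2 ratio of 3.51, and Batf3 had a log2 ratio of 1.28. Maf, the most abundant of the list in reads, had 8986 and 7822 reads and the lowest log2 ratio, -0.78. Jdp2, a repressor that pairs with Jun proteins, had 149 and 252 reads with a log2 ratio of 0.17, Batf 17 and 48 reads with 0.87, and Atf2, the JNK-activated partner of Jun, 1812 and 2745 reads with 0.01.

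Other immediate early genes were for the most part higher. Of 32 listed, 30 had a row, and Egr4 and Dusp2 were not analysed here. Of the 30, 19 were at least 2-fold higher in the CKO library and 0 lower, beside 13.4% and 5.35% of all genes tested, with a median log2 ratio of 1.53. The count of higher genes ran from 16 (beside 5.98%) for the deposited values scaled by the median gene ratio to 24 (beside 17.9%) for those left unscaled. Egr3, with 3 control reads, was the only gene of the 30 under 10 reads there, so it was tested only through its CKO reads. Egr2, a relative of Egr1, had 13 reads in control kidney and 397 in CKO kidney, the highest log2 ratio of the list at 4.25. The nuclear receptor gene Nr4a1 had 142 and 1713 reads and was 8.04-fold higher after scaling. For Ccn1, which encodes a secreted matrix protein, the reads were 642 and 7006, or 7.28-fold higher after scaling.

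Ier3, a survival gene, had 380 and 2702 reads with a log2 ratio of 2.24, and Ier2 had 275 and 862 with 1.06. Ccn2, the most abundant of the list in reads, had 2598 and 7346 with 0.91. Some immediate early genes on the list stood near 0. Klf2 had the lowest log2 ratio, 0.02, from 325 and 495 reads. Dusp1, the phosphatase that shuts off p38 and JNK, had 1743 and 2694 reads with a log2 ratio of 0.04. Maff, Dusp1, Srf and Zfp36 each stand on 2 of the lists used here.

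The factors that turn these genes on had a median log2 ratio of 0.04. Of 23 kinases and promoter factors upstream of AP-1, 1 was at least 2-fold higher, beside 13.4% of all genes tested, and 0 lower. Map3k8, a kinase that activates the MAP kinase cascades, lay at the edge of 2-fold with 54 and 162 reads and 0.99, and equal upper quartiles put 2 genes past it. Equal totals put 3 past 2-fold, beside 21.9% of all genes tested at that scaling. At the scaling used here the gene was Map3k1, a kinase of the JNK cascade, with 1196 reads in control kidney and 4054 in CKO kidney and a log2 ratio of 1.18. The JNK gene Mapk8 had 765 and 1062 reads with -0.11, and Mapk10, with 16 and 15 reads, was lowest at -0.63. Srf, which binds the CArG box, had 982 and 1516 reads with 0.04, and its partner Elk1 270 and 479 with 0.24. These kinases are regulated by phosphorylation, which reads do not measure.

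Of 15 feedback inhibitors of the MAP kinases with a row, 3 were at least 2-fold higher (20.0%, beside 13.4% of all genes tested), namely Dusp10 with 20 and 181 reads and a log2 ratio of 2.53, Dusp8 with 1.81 and Dusp5 with 1.43. The count of lower genes was 0, the median was 0.14, and Dusp16 was lowest at -0.18. Dusp1, given above, had the most reads of the list. Dusp8 and Dusp5 are named because the count was small, after their values were seen, as are Batf3 above and Mxd3, Tfrc and Csf1r below.

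Known AP-1 targets were higher on the whole. Of 22 listed, 18 had a row, and 10 of these were at least 2-fold higher and 1 lower, beside 13.4% and 5.35% of all genes tested, with a median log2 ratio of 1.64. All but Mmp9, with 9, had at least 10 control reads. The chemokine gene Ccl2 was highest, with 13 reads in control kidney, 1559 in CKO kidney and a log2 ratio of 6.22. Spp1, which encodes osteopontin, had the most reads, 15360 and 412220, with a log2 ratio of 4.16. The collagenase gene Mmp13 was lowest, at a log2 ratio of -1.01 from 76 and 56 reads, whose interval ran from -1.55 to -0.51. It lay at the edge of 2-fold: the count of lower genes was 0 with a pseudocount of 10, equal totals, equal upper quartiles or the deposited values. The count of higher genes was 14 under equal totals, beside 21.9% of all genes. These genes also answer to other factors, and no step here measured AP-1 at their promoters.

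At the scaling used here, known Myc targets had a median near that of all genes. Of 22 genes known to be activated by Myc, 0 were at least 2-fold higher and 2 were at least 2-fold lower, beside 13.4% and 5.35% of all genes tested, with a median log2 ratio of 0.04. Odc1, the polyamine enzyme, was lowest, with 19769 reads in control kidney, 8550 in CKO kidney and a log2 ratio of -1.79, and Tfrc, the transferrin receptor, had -1.07. Only 1 of the 2 stayed at least 2-fold lower under equal totals or when the deposited values were left unscaled, and 3 of the 22 were at least 2-fold higher under the latter, beside 17.9% of all genes. Cad, the pyrimidine synthesis enzyme, was highest at 0.56 from 383 and 848 reads, and Ldha, with the most reads, had 23683 and 21827 with -0.70.

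In the Myc network, 2 of 12 genes were at least 2-fold higher (16.7%, beside 13.4% of all genes tested) and 0 lower, with a median log2 ratio of 0.19. Mycl, a relative of Myc, had 32 and 186 reads with a log2 ratio of 1.92, and Mxd3 had 1.34. Max, the partner that Myc needs to bind DNA, had 1263 and 2214 reads with 0.22. Mxi1, with the most reads, had 2637 and 3066 with -0.37, and Mlx was lowest at -0.56. Of the corepressors of Egr1, Nab2, which Egr1 itself activates, had 476 and 1125 reads with 0.65 (interval 0.50 to 0.81), and Nab1 had 1462 and 2161 with -0.02, the list's median being 0.32.

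Among 12 AU-rich decay and Regnase factors, 1 was at least 2-fold higher, beside 13.4% of all genes tested, and 0 lower, with a median log2 ratio of 0.14. Equal totals put 4 of the 12 past 2-fold, beside 21.9% of all genes, and the deposited values left unscaled put 5, beside 17.9%, so this count depended on the scaling. At the scaling used here the gene was Zc3h12d, which encodes Regnase-4, with 8 reads in control kidney, 80 in CKO kidney and a log2 ratio of 2.59. Its control reads were under the filter, so it was tested only through the library in which it was higher. Zfp36, which encodes tristetraprolin and is itself an immediate early gene, had 976 and 2752 reads with 0.91. Zfp36l1, with the most reads, had 2658 and 7412 with 0.89, and Zc3h12c was lowest at -0.49.

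**Figure D5:**
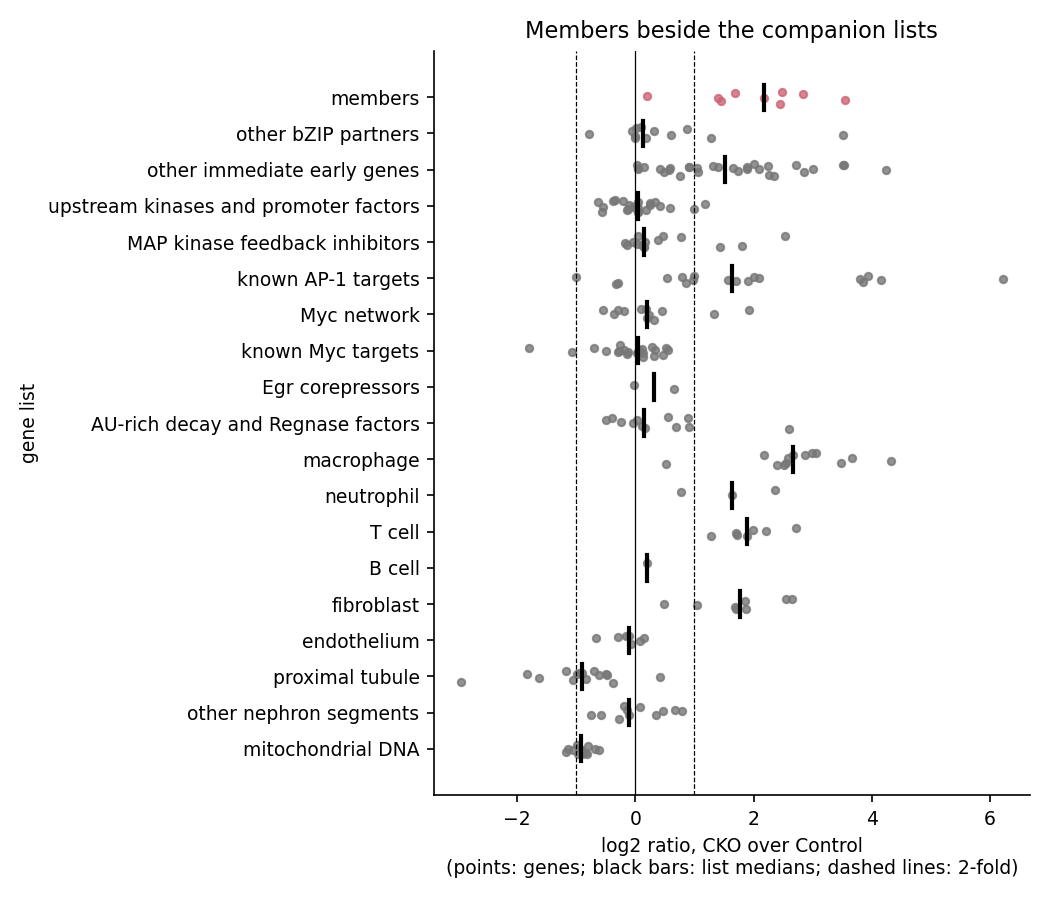
Log2 ratios of CKO over control for the tested genes of each list, 1 library per group, with list medians as black bars and 2-fold as dashed lines. The members have a median of 2.18, other immediate early genes 1.53 and upstream kinases and promoter factors 0.04.

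Markers of macrophages, T cells, neutrophils and fibroblasts were mostly higher along with the members, and whole kidney RNA does not separate cell types: more cells of a type and more RNA per cell cannot be told apart here, nor fewer cells and less RNA per cell. Macrophages express Fos, Jun, Atf3 and Egr1 on activation. Of 13 macrophage markers, 12 were at least 2-fold higher in the CKO library, beside 13.4% of all genes tested. Csf1r was within 2-fold at 0.51, and the median log2 ratio of the list was 2.67. The summed reads of the markers were 4194 in the control library and 29231 in the CKO library. Lyz2 had the most over both libraries together, with 518 and 9836, though Csf1r had the most in the control library, 2244. Ms4a7 had the highest log2 ratio, 4.33, from 6 and 210 reads. Ms4a7 was the only marker of the list under 10 control reads. The median of the macrophage markers was above that of the members, and their part in the members' ratios was not tested.

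Markers of T cells were few in reads but higher, 7 of the 7 with a row by at least 2-fold, beside 13.4% of all genes tested. The median log2 ratio of these markers was 1.89. Their sum was 86 and 507 reads, Lck had the most with 28 and 160, Cd5 was highest at 2.72 from 3 and 38 reads, and Cd2 was lowest at 1.27. Only 4 of the 7 had at least 10 control reads: Cd5, Cd3e with 6 and Cd8a with 8 were tested only through the CKO library, so this rule fixed that they would be higher there. With the values as deposited and scaled by the median gene ratio, the median was 0.69. At that setting 2 of the 7 were at least 2-fold higher, beside 5.98% of all genes. Of 8 neutrophil markers listed, 3 had a row, of which 2 were at least 2-fold higher, beside 13.4% of all genes tested. The 3 had a median of 1.64 and sums of 42 and 260 reads. Csf3r was the most abundant of these, with 22 and 177 reads, and the highest, at 2.37, and S100a8 was lowest at 0.77, with 7 control reads, so that it too was tested only through the CKO library. As deposited and scaled by the median gene ratio, the neutrophil median was 0.69, with 1 of the 3 at least 2-fold higher, beside 5.98% of all genes. The B cell marker Cd79b, the only marker of that list analysed here, had 23 and 40 reads with 0.21.

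Of 8 fibroblast markers, 7 were at least 2-fold higher, beside 13.4% of all genes tested. The list had a median log2 ratio of 1.78 and sums of 7019 and 34778 reads. Col3a1 had the most reads over both libraries together, with 1107 and 9779, though Pdgfrb had the most in the control library, 1513. Col1a1 had the highest log2 ratio, 2.65, and Pdgfrb the lowest, 0.48. The 7 endothelial markers were all within 2-fold, with sums of 11734 and 15782 reads. Their median was -0.10, and 0.32 with the libraries scaled to equal totals. Emcn was the highest of them at 0.14. Kdr had the most reads over both libraries together, with 2528 and 2390, and the lowest log2 ratio, -0.67. In the CKO library alone Pecam1 had the most reads, 2750. The part of fibroblasts in the members' ratios was not tested.

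The proximal tubule, the segment named in the labels, had markers that stood lower in the CKO library. Of 15, 14 had a log2 ratio below 0, and the median was -0.91. At least 2-fold lower were 5 of the 15, beside 5.35% of all genes tested. Equal totals gave a median of -0.49 with 13 below 0, and leaving the deposited values unscaled gave -0.32 with 11 below 0. Under each, 3 of the 15 were at least 2-fold lower, beside 2.47% and 0.655% of all genes. The sums were 943991 and 661123 reads. Acsm2 was the most abundant, with 253157 and 106804 reads, Slc7a13 the lowest at -2.95 and Slc5a12 the highest at 0.41. The phosphate transporter gene Slc34a1 had 147064 and 98124 reads with -1.17, and Lrp2 had -0.91.

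The 11 markers of other nephron segments had sums of 151390 and 277963 reads. Their median log2 ratio was -0.11, with all 11 within 2-fold. Equal totals gave a median of 0.30 with 2 at least 2-fold higher, beside 21.9% of all genes, and the deposited values left unscaled put 3 past 2-fold, beside 17.9%. Umod, with the most reads, had 0.47, the water channel gene Aqp2 was highest at 0.79, and Slc12a3 of the distal convoluted tubule had 8573 and 13571 reads with 0.08. The 13 mRNAs of mitochondrial DNA had log2 ratios below 0, with a median of -0.92 and sums of 6503631 and 5305475 reads. At the scaling used here 3 of them were at least 2-fold lower, beside 5.35% of all genes tested. Under equal totals, and when the deposited values were left unscaled, this count was 0 and the medians were -0.51 and -0.34. COX1 had the most reads, 1890982 and 1578073, ND2 was lowest at -1.17 and ATP6 highest at -0.62. They took 16.7% of all control reads and 12.2% of all CKO reads. Over this same pair of libraries the members were higher while these mRNAs were lower, and the part of tubule content and of mitochondrial reads in the members' ratios was not tested.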

How the data were processed

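The authors sequenced whole kidney RNA of a control and a CKO group, 1 stranded TruSeq mRNA library each. Per the study's methods and the submitters' processing notes, reads were aligned with STAR 2.7.3a to mm10, counted with HTSeq and normalized with DESeq2; the gene annotation is not given in the sources used here. The deposited values are treated as a score: whole numbers that the authors call normalized counts. Subtracting 34 and 50 gave the reads, on the inference that each column is a read count with a constant added. The control library then held 38851231 reads and the CKO library 43588721, with 95% Poisson or Clopper-Pearson intervals for counting error.

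CKO reads were scaled by the median gene ratio, 0.667. Log2 ratios used a pseudocount of 1, genes needed 10 scaled reads in 1 library, and the threshold was 2-fold. With 1 library per group no test was made. Of 20002 genes, 17983 had an exon length from GENCODE M21, matched by symbol or gene number. The members and the gene lists were chosen with earlier results of these data known. Named genes were all members and, from each companion list, the highest and lowest log2 ratio, the gene with the most reads, and a fixed set of direct partners and feedback genes; some genes under this rule are not reported here. Alternatives were other pseudocounts, scalings, filters and thresholds, the values as deposited, and the column minimum subtracted. The reading of the deposited values as reads plus a constant was not tested. Python 3.11.15, numpy 2.4.6, pandas 2.3.3, scipy 1.17.1 and matplotlib 3.10.9 were used.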

Additional observations from a re-analysis of the deposited data

How the results depend on the processing

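No paired analysis was possible because there was 1 library in each group and no test was made. The count of 8 members at least 2-fold higher was the same under each pseudocount, scaling and floor tried, was 8 at 1.5-fold and was 5 at 4-fold; the count of members lower was 0 under all of them. The lowest member was Jund under each setting, with log2 ratios from 0.17 to 0.78, and the highest was Atf3, from 2.93 to 3.97. Fosb ran from 1.06, with the values as deposited and scaled by the median gene ratio, to 2.85. The median of the members ran from 1.63, with the values as deposited and scaled by the median gene ratio, to 2.60 with equal totals; it was 1.78 with a pseudocount of 10 and 2.52 with equal totals of the genes outside mitochondrial DNA, a scaling chosen after seeing the data. These scalings moved the median of all genes tested to 0.44 and 0.37, and the members stood above it by 2.15 under both. That gap depended on the floor: it was 1.63 with the values as deposited, with or without scaling, and 1.76 with a pseudocount of 10. With the values as deposited, not scaled, the median of all genes was 0.57.

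Counts over all genes moved more. Genes at least 2-fold higher and lower numbered 3870 and 437 with equal totals, 3519 and 490 with equal totals outside mitochondrial DNA, 3574 and 131 as deposited without scaling, and 1196 and 463 as deposited with scaling. They numbered 3801 and 2423 at 1.5-fold and 749 and 166 at 4-fold, and 617 were lower with at least 50 scaled reads. The higher genes made up 71.4% of those past 2-fold in the main setting, 89.9% with equal totals, 87.8% with equal totals outside mitochondrial DNA and 96.5% as deposited without scaling. Companion list medians were recomputed for 197 pairs of list and setting. Of these, 145 stayed between the median lower and median upper interval bounds of the list's genes. Those bounds describe single genes and are not an interval of the list median. The endothelial median became 0.32, 0.24 and 0.48, and that of other nephron segments 0.30, 0.23 and 0.48, with equal totals, equal totals outside mitochondrial DNA and the values as deposited without scaling; with at least 50 scaled reads the B cell list had no gene left. Counting error limits Fosb most, and the spread between mice was not measured.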
